A study of Homo sapiens with 5 samples.

Results

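Mucins are large glycoproteins of epithelial surfaces, and their genes were followed here between gefitinib-sensitive and gefitinib-resistant lung adenocarcinoma cells. A total of 10 symbols were chosen, namely MUC1, MUC3A, MUC4, MUC5AC, MUC5B, MUC12, MUC13, MUC15, MUC16 and MUC20. Of these, 9 had an entry in the deposited table of 37181 genes and assembled loci, and MUC15 was not analysed here. For each symbol the entry with the highest mean level over the 5 libraries was taken, a choice that mattered only for MUC20, which has more than 1 entry.

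HCC827 is a human lung adenocarcinoma cell line with an activating deletion in exon 19 of EGFR, the receptor that gefitinib inhibits. HCC827/GR is the resistant line derived from it by stepwise exposure to rising gefitinib concentrations for more than 6 months, so both groups carry the same deletion. RNA sequencing gave 3 libraries of HCC827/GR (replicates 1, 2 and 3) and 2 of parental HCC827 (replicates 2 and 3). Nothing in the sources says that the libraries came from separate cultures, whether HCC827/GR is a single clone, or whether gefitinib was present at harvest, so p-values measure only the spread between these libraries. Levels are FPKM, which are fragment numbers normalised to transcript length and to the size of the library. FPKM carry no read counts, so the depth behind each value is unknown.

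Mucins share long stretches rich in serine and threonine, the amino acids to which O-linked sugar chains are attached. Gel-forming mucins such as MUC5AC and MUC5B are secreted and make up the bulk of airway mucus. Membrane mucins such as MUC1, MUC4 and MUC16 stay anchored in the apical membrane, form a barrier there, and can shed their extracellular part. MUC1 and MUC4 are also known to associate with receptors of the EGFR family, and the shed part of MUC16 is the tumour marker CA125.

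The repeats that define the family can be read in the reference transcripts (GENCODE release 29, GRCh38) behind these entries. Of the codons of each longest coding transcript, between 24% (MUC13) and 49.6% (MUC3A) encode serine or threonine, against a median of 12.9% over 19583 protein-coding genes. All 9 members lie at or above the 99.3 percentile of those genes. Repeat units of 5 members follow, each from the longest tandem stretch found in its transcript. That stretch is long in MUC1, MUC4 and MUC20 and holds about 2 copies in MUC5AC and MUC13. It is not the full extent of repeats in a gene. In repeated sequence a read can match several places of one transcript. Each is 1 copy in the coding direction, with in-frame serine and threonine codons in capitals.
MUC1: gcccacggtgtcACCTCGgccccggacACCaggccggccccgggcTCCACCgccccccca
MUC4: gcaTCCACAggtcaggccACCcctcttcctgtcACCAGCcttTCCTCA
MUC20: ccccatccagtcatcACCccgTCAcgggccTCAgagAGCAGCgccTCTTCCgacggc
MUC5AC: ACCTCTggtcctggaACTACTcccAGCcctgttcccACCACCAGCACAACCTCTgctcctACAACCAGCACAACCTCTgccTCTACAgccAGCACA
MUC13: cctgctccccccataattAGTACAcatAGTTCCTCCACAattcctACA

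The MUC1 unit of 60 bases (chr1:155191219-155191278, minus strand, exon 3) recurs over a stretch of 696 bases, and 5 of its 20 codons encode serine or threonine. In MUC4 the unit has 48 bases (chr3:195780852-195780899, minus strand, exon 2), with 7 such codons of 16, and successive copies are 86.3% identical over 421 bases. The MUC20 unit of 57 bases (chr3:195725150-195725206, plus strand, exon 1) repeats without a mismatch over 516 bases. The densest unit belongs to MUC5AC, where 21 of 32 codons in 96 bases (chr11:1191565-1191660, plus strand, exon 31) encode serine or threonine. MUC13 holds only 2 copies of its unit of 48 bases (chr3:124927794-124927841, minus strand, exon 2).

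Repeats within a gene and copies between genes are different limits on these levels. Of all words of 50 bases in the transcript, 61.5% occur more than once in MUC12, 42.4% in MUC1, 29.2% in MUC5B and 28.3% in MUC4. The share was 21.4% in MUC5AC, 19.7% in MUC20 and none in MUC13. Words shared with other genes are rare except in MUC20, where 69.1% also occur in transcripts of 2 other genes and 46.6% in the pseudogene MUC20P1. The transcripts of MUC16, MUC13, MUC4, MUC1 and MUC12 hold no word found in another gene.

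**Figure D1:**
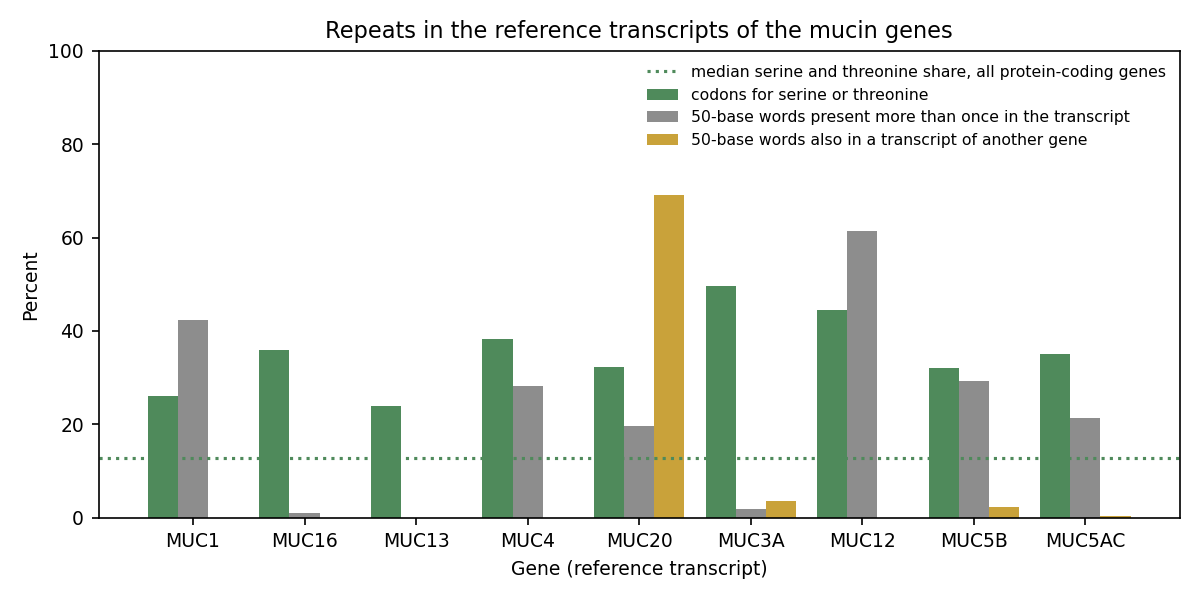
Percent (0 to 100) for the reference transcript of each of the 9 mucin genes. Green bars give the share of codons for serine or threonine, grey bars the share of 50-base words present more than once in the transcript and yellow bars the share also present in a transcript of another gene. The dotted line is the median serine and threonine share of all protein-coding genes, 12.9%, and every green bar is above it. Only MUC20 has a tall yellow bar, at 69.1%.

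In parental HCC827 cells MUC1 was the most abundant member, at 9.81 ± 0.326 FPKM (mean ± SD, n = 2), followed by MUC16 at 6.10 ± 1.62. The ranges of these genes did not overlap. MUC13 (2.78 ± 0.799 FPKM) and MUC5B (2.29 ± 0.0967 FPKM) came next with overlapping ranges, and MUC20 (1.36 ± 0.343 FPKM) and MUC4 (0.734 ± 0.0950 FPKM) followed, each below the range of the gene before it. MUC3A, MUC5AC and MUC12 stayed below 0.13 FPKM in both parental libraries, and their ranges were not all separate.

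In HCC827/GR cells MUC1 was again first, at 4.58 ± 0.361 FPKM (n = 3), but MUC20 was second at 1.09 ± 0.389 FPKM. The entries of MUC1 and MUC20 also join transcripts of other genes, so their places and shares in both lines are those of the joined entries. MUC16 (0.402 ± 0.170 FPKM) and MUC13 (0.398 ± 0.0692 FPKM) could not be told apart. MUC5B moved from place 4 to place 8 of 9, below MUC3A, MUC12 and MUC4. The 9 levels summed to between 5.91 and 7.60 FPKM in HCC827/GR and to 23.9 and 22.7 FPKM in HCC827. MUC1 made up between 64.0% and 70.7% of that sum in HCC827/GR, against 40.1% and 44.2% in HCC827, and the share of MUC16 was between 3.52% and 7.75%, against 30.3% and 21.8%. At least 0.5 FPKM was reached by 6 members in each parental library and by 2, 3 and 2 in HCC827/GR replicates 1, 2 and 3.

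**Figure D2:**
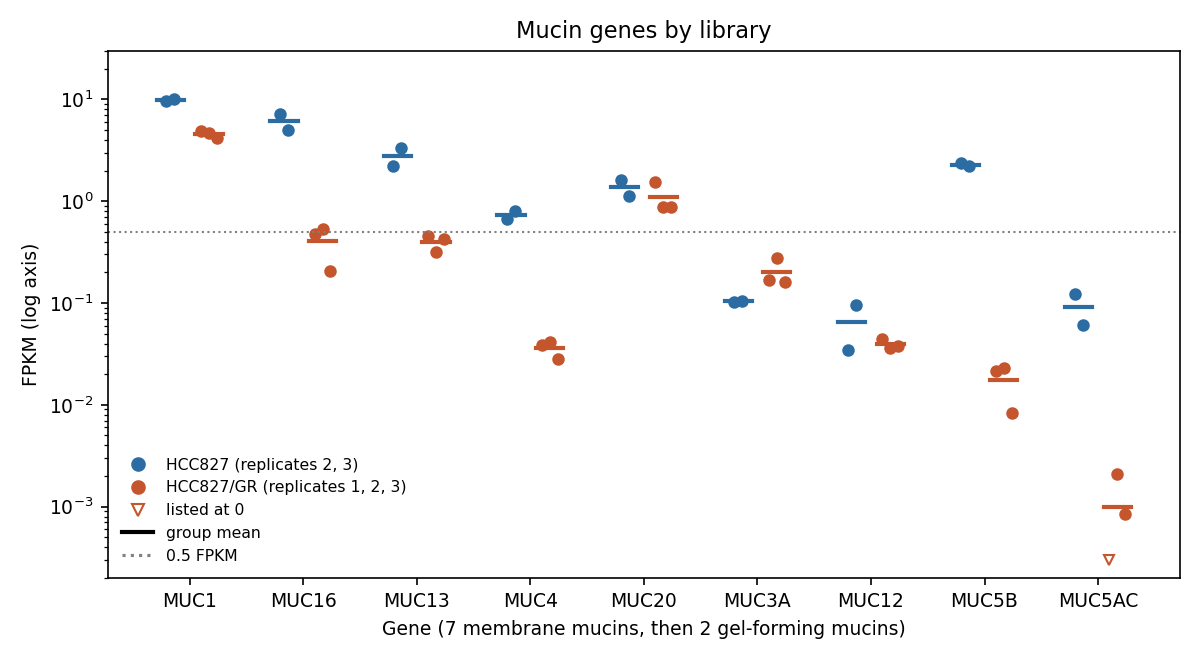
FPKM (log axis) of each mucin gene in each library, with HCC827 in blue (n = 2), HCC827/GR in orange (n = 3) and group means as bars. The open triangle marks MUC5AC in HCC827/GR replicate 1, which is listed at 0 and drawn at the foot of the axis, and the dotted line is 0.5 FPKM. For MUC1, MUC16, MUC13, MUC4, MUC5B and MUC5AC every orange point is below every blue point, and for MUC3A every orange point is above.

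The question put to the 9 genes was which differed between resistant and sensitive cells. MUC16, MUC5B and MUC13 fell in HCC827/GR, MUC1 was lower by a fold change just short of the threshold, and no tested member rose. A gene was called when its fold change on the log2(FPKM + 1) scale was at least 2 or at most 0.5 with a p under 0.05 in limma's moderated test. Entries averaging under 0.5 FPKM were left out, and of the 16189 tested 5 were members. Of these, 3 were called lower, where 3.97% of all entries tested were called lower, and 0 were called higher, where 2.96% were. An adjusted p under 0.05 was found for 4 of the 5, all lower in HCC827/GR, as for 5.71% of all entries tested. MUC16, MUC13 and MUC5B averaged below 0.5 FPKM in HCC827/GR and entered the test only through their parental level, so they had to differ, and the count of 3 is not support for a change of the family. MUC5B was also among the genes that the study picked from these same samples.

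Without regard to the filter, the groups did not overlap for 7 of the 9 genes. HCC827/GR was the lower group for 6 (MUC1, MUC16, MUC13, MUC4, MUC5B and MUC5AC) and the higher group for MUC3A. Over the 36011 entries above 0 in any library, 18.7% did not overlap with HCC827/GR lower and 15.1% with HCC827/GR higher.

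MUC16, the giant membrane mucin that carries CA125, had the largest difference of any member on the log2(FPKM + 1) scale, though not with a pseudocount of 0.1 (-3.67, against -4.34 for MUC5B) or by the ratio of means. HCC827/GR replicates 1, 2 and 3 held 0.471, 0.527 and 0.208 FPKM and HCC827 replicates 2 and 3 held 7.24 and 4.96 FPKM. Every resistant library was below both parental ones, and the ratio of the means was 15.2. The log2 fold change was -2.33 (SE 0.20, limma adjusted p = 0.00733), which put MUC16 at place 83 among all falls. The entry (gene at chr19:8848844-8981342, minus strand) combines 3 annotated transcripts of MUC16 with 7 assembled ones. Its reference transcript is 43816 bases long, so that the parental level corresponds to 267 of every 1000000 mapped fragments if all came from that transcript.

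MUC1, the membrane mucin present on most glandular epithelia, was measured at 4.87, 4.71 and 4.18 FPKM in HCC827/GR replicates 1, 2 and 3. In HCC827 replicates 2 and 3 it was at 9.58 and 10.04 FPKM, so the groups were separate and each was tight. The ratio of the means was 2.14, and on the log2(FPKM + 1) scale the fold change was -0.95 (SE 0.10, adjusted p = 0.0111). It was thus past the adjusted p but short of the fold threshold, which it crossed with a pseudocount of 0.1 (log2 fold change -1.08). The adjusted p was 0.0600 without HCC827 replicate 2 and 0.0603 without replicate 3. The gene lies at chr1:155185824-155192916, minus strand, and its entry reaches beyond that span. The entry joins 22 transcripts of MUC1 with 10 of the neighbouring gene KRTCAP2, 1 of AL713999.1 and 3 assembled ones. Their parts in the value cannot be told apart.

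MUC13, a membrane mucin best known from the gut, held 0.452, 0.320 and 0.421 FPKM in HCC827/GR and 2.21 and 3.34 FPKM in HCC827. The groups did not overlap and the ratio of the means was 6.98. The log2 fold change was -1.42 (SE 0.17, adjusted p = 0.0140). That adjusted p was 0.0567 without HCC827/GR replicate 1 and 0.0530 without replicate 2, with the direction kept. The entry (gene at chr3:124905442-124953819, minus strand) holds 2 transcripts, both of MUC13.

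MUC4, a membrane mucin and ligand-like partner of ERBB2, was below the filter and not tested. Its levels were 0.0386, 0.0414 and 0.0281 FPKM in HCC827/GR and 0.667 and 0.801 FPKM in HCC827. The lowest parental library was 16.1 times the highest resistant one, and the ratio of the means was 20.4. In a fit with no filter, where 2.1% of 36011 entries were lower with an adjusted p under 0.05, MUC4 had a log2 fold change of -0.74 (SE 0.08, adjusted p = 0.0282). The pseudocount of 1 exceeds both group means, so this fold change understates the ratio. The entry (gene at chr3:195746765-195812277, minus strand) holds 16 transcripts, all of MUC4.

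MUC20, a short membrane mucin that binds the receptor MET, did not pass the test. It was at 1.54, 0.870 and 0.869 FPKM in HCC827/GR and at 1.61 and 1.12 FPKM in HCC827, so that HCC827/GR replicate 1 lay inside the parental range. The log2 fold change was -0.18 (SE 0.20, adjusted p = 0.621). The gene lies at chr3:195720882-195741123, plus strand. Its entry is the least specific of the 9, with 8 transcripts of MUC20 beside 90 of the non-coding MUC20-OT1, 1 of SDHAP2 and 2 assembled ones. A second MUC20 entry was listed at 0, 0.216 and 0 FPKM in HCC827/GR and at 0 and 1.36 FPKM in HCC827. MUC20P1 was at 1.44 FPKM in HCC827 replicate 3 and at most 0.115 in the other libraries, so a single parental library was high for both copies.

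MUC3A and MUC12, membrane mucins of the intestine that lie side by side on chromosome 7, were near the floor in every library and were not tested. MUC3A (chr7:100949555-100968346, plus strand) was at 0.168, 0.274 and 0.160 FPKM in HCC827/GR and at 0.103 and 0.106 FPKM in HCC827. Resistant cells were the higher group, with a ratio of 1.92, but in the fit with no filter the adjusted p was 0.425. MUC12 (chr7:100969623-101018949, plus strand) was at 0.0439, 0.0364 and 0.0378 FPKM in HCC827/GR and at 0.0346 and 0.0962 FPKM in HCC827. Its groups overlapped (adjusted p = 0.609 with no filter).

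MUC5B, the gel-forming mucin of airway submucosal glands, had the largest ratio of any member tested. HCC827/GR libraries held 0.0214, 0.0230 and 0.00829 FPKM and HCC827 libraries 2.35 and 2.22 FPKM. The lowest parental value was 96.2 times the highest resistant value, and the means had a ratio of 130.0. With the pseudocount of 1 the log2 fold change was only -1.69 (SE 0.12, adjusted p = 0.00521), and with a pseudocount of 0.1 it was -4.34. On its reference transcript of 17911 bases, the means correspond to 0.315 fragments (HCC827/GR) and 40.9 fragments (HCC827) of every 1000000 mapped. The entry (gene at chr11:1223066-1262172, plus strand) holds 4 transcripts, all of MUC5B. Its antisense gene MUC5B-AS1 was listed at 0, 0 and 0.142 FPKM in HCC827/GR and was at 0.215 and 0.563 FPKM in HCC827. Whether the libraries kept strand is not given in the sources used here, and reads of the overlap could then be counted for either gene.

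MUC5AC, the gel-forming mucin of airway goblet cells, was at most 0.123 FPKM in any library and was not tested. It was listed at 0 in HCC827/GR replicate 1 and at 0.00211 and 0.000842 FPKM in replicates 2 and 3, against 0.123 and 0.0602 FPKM in HCC827. The groups were separate, but the resistant mean corresponds to 0.0172 of every 1000000 mapped fragments on a transcript of 17448 bases, and the adjusted p with no filter was 0.113. The entry (gene at chr11:1157953-1201138, plus strand) holds a single transcript.

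**Figure D3:**
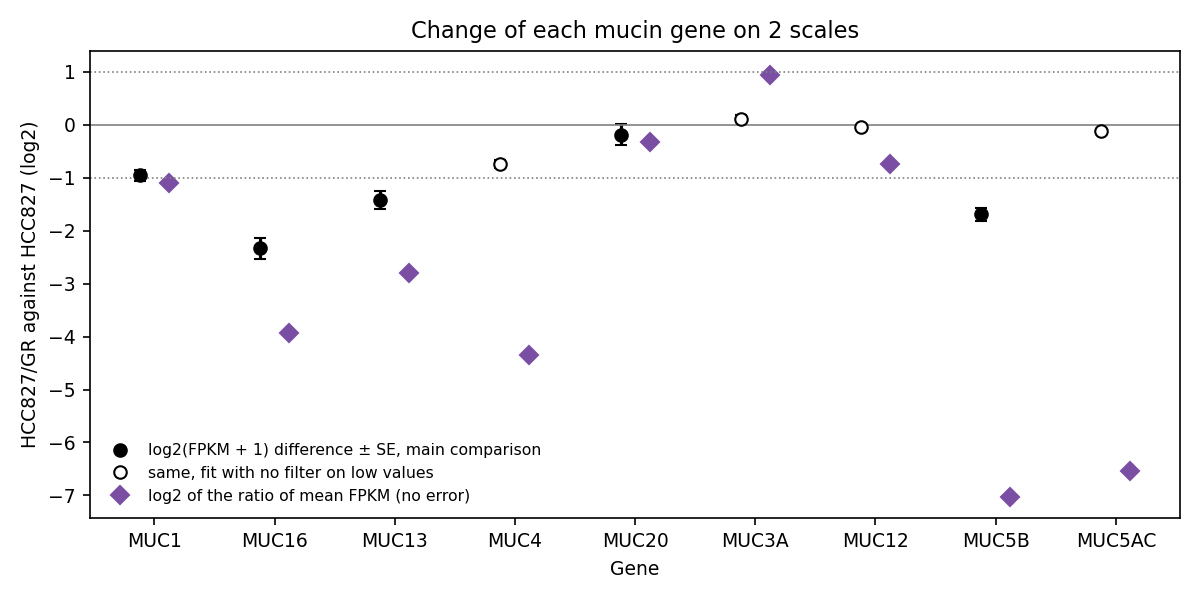
Difference of each mucin gene between HCC827/GR and HCC827 on a log2 axis, with negative values lower in HCC827/GR. Black points are differences of log2(FPKM + 1) with their SE (filled for the 5 genes tested, open for the fit with no filter), and purple diamonds are the log2 ratio of mean FPKM, which has no error. The scales part most for genes near 0, as for MUC5B at -1.69 against -7.02, and dotted lines mark a fold change of 2.

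The sequence upstream of the start was compared for the members that were lower in HCC827/GR. RefSeq promoter windows (GRCh38.p14) were found for 6 of the 10 symbols, not for MUC5AC, MUC5B, MUC15 or MUC20. The windows listed for MUC16 start at least 29067 bases from a start of the GENCODE gene and were not printed. Those of MUC1, MUC13 and MUC4 are printed because these genes were lower together, each as the 250 bases before the start in the direction of transcription with motif matches in capitals.
MUC1: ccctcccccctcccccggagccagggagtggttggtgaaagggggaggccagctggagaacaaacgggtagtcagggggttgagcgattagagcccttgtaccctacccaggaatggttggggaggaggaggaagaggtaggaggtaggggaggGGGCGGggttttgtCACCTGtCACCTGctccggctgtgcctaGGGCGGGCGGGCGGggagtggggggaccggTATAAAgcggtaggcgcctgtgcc
MUC13: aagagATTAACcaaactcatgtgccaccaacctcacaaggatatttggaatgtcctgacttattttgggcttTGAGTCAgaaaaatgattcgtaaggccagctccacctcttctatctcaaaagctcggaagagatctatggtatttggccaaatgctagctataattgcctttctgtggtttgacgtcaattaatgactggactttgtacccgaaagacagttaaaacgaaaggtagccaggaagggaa
MUC4: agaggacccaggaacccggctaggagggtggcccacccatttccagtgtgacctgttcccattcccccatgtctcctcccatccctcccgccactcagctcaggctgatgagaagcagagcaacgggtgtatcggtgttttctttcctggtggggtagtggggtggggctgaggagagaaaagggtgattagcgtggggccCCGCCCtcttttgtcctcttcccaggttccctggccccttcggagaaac

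The searched motifs, on both strands, were the E-box CAGGTG, the FOXA motif TGTTTAC, the AP-1 motif TGAGTCA, the GC box GGGCGG, the TATA box TATAAA, the GATA motif AGATAA and the HNF1 motif GTTAAT. The MUC1 window (chr1:155192916-155193165, minus strand) holds the E-box at 75 and 82 bases before the start, in the orientation CACCTG, and 17.5% of 35116 windows hold at least 1. It also holds GC boxes, 3 of which overlap (present in 42.6% of windows), and a TATA box 24 bases before the start (10.7%). The MUC13 window (chr3:124934752-124935001, minus strand) holds the AP-1 motif 178 bases before the start (4.20%) and the HNF1 motif, as ATTAAC, at 245 (6.23%). In MUC4 (chr3:195811930-195812179, minus strand) the only match is a GC box, and the start used lies 40 bases from the nearest GENCODE start. No motif was shared by all 3 windows. FOXA (2.98% of windows) and GATA (9.17%) motifs were not matched in any of them.

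Among other mucins and mucin-like proteins the calls were in the higher direction, but all were of mucin-like proteins. Of 17 listed, 12 were in the table, of which MUC2, MUC6, MUC17, MUC21, MUC22 and MUCL3 were below the filter. The 6 tested were OVGP1, CD164, MCAM, PODXL, SELPLG and HAVCR1. Of these, 3 were called higher and 0 lower, where 2.96% and 3.97% of all entries were, with a median log2 fold change of 0.87, against 0.00 over all entries tested. Podocalyxin, PODXL, a sialomucin of podocytes and vessels, held 22.7, 20.9 and 29.3 FPKM in HCC827/GR and 1.77 and 1.81 in HCC827 (log2 fold change 3.17, SE 0.16, adjusted p = 0.00248). The adhesion molecule MCAM, known as MUC18, rose by 2.01 on the log2 scale (adjusted p = 0.00349), and HAVCR1, the mucin-domain protein TIM-1, rose by 1.64 (adjusted p = 0.0109). In each of these genes every resistant library was above both parental ones.

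Other members of that list were not called or were below the filter. CD164, the sialomucin endolyn, was well expressed, at 35.5, 29.9 and 13.9 FPKM in HCC827/GR and 33.0 and 25.3 FPKM in HCC827, with overlapping groups (log2 fold change -0.22, adjusted p = 0.792). MUC22 was at 0.124, 0.123 and 0.0785 FPKM in HCC827/GR and at 0.766 and 0.618 FPKM in HCC827, with groups apart and no test, since its mean was below the filter. MUC21 was listed at 0 in all 3 resistant libraries and at 0.0492 and 0.00554 FPKM in HCC827. MUCL3 was lower too, at 0.006824, 0.02915 and 0.0217 FPKM in HCC827/GR and at 0.09188 and 0.04337 FPKM in HCC827. MUC2, MUC6 and MUC17 overlapped between groups. OVGP1, a secreted glycoprotein of the oviduct, had a log2 fold change of -0.59 that did not pass the call (adjusted p = 0.102).

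Genes listed for the synthesis of O-linked sugar chains moved in both directions. Of 36 listed, 31 were in the table and 23 were tested, with 1 called higher, 4 called lower and a median log2 fold change of 0.05. Either call was made for 6.94% of all entries tested. ST6GALNAC5 and C1GALT1C1, which are among the 4, averaged below 0.5 FPKM in HCC827/GR. They passed the filter only through their parental level and had to be lower, so the count is not support for a change of this list. GALNT1, one of the transferases that attach the first sugar to serine or threonine, rose from 7.14 and 9.21 FPKM in HCC827 to 34.3, 40.5 and 33.9 FPKM in HCC827/GR (log2 fold change 2.03, adjusted p = 0.00526). GALNT5, of the same family, fell by 1.83 on the log2 scale (adjusted p = 0.00349), from 5.95 and 5.05 FPKM to between 0.745 and 0.897 FPKM.

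The other 3 that were called lower were B3GNT3, ST6GALNAC5 and C1GALT1C1. B3GNT3, which extends core 1 chains, was at 7.08 and 3.59 FPKM in HCC827 and between 0.521 and 1.14 FPKM in HCC827/GR (log2 fold change -1.81, adjusted p = 0.0300). ST6GALNAC5, a sialyltransferase, was at 1.12 and 1.58 FPKM in HCC827 and at most 0.0136 FPKM in HCC827/GR. C1GALT1C1, the chaperone Cosmc of the core 1 synthase, had a log2 fold change of -1.22 with an adjusted p of 0.0533, while the core 1 synthase itself, C1GALT1, overlapped between groups (-0.24, adjusted p = 0.813).

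The airway secretory programme, in which gel-forming mucins are normally made, was mostly below the filter. Of 34 genes listed, 29 were in the table and only 7 were tested, of which 4 were called lower and 2 higher (3.97% and 2.96% of all entries), with a median log2 fold change of -1.05. AGR2 and SLPI, which are among the 4, passed the filter only through their parental level and had to be lower, so neither the count nor the median is support for a change of the programme. AGR2, the protein disulfide isomerase needed for mucin folding, was at 2.22 and 1.15 FPKM in HCC827 and at most 0.0258 FPKM in HCC827/GR (log2 fold change -1.38, adjusted p = 0.0265). SLPI, a protease inhibitor of airway secretions, was at 2.11 and 2.001 FPKM in HCC827 and listed at 0 in every HCC827/GR library. The lung transcription factor gene NKX2-1, whose entry joins several genes, fell by 1.64 (adjusted p = 0.0115). FOXA1 was called lower at -1.05 with an adjusted p of 0.0740.

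XBP1 and CREB3L1, transcription factors of the secretory pathway and its stress response, went the other way. CREB3L1 rose by 1.42 on the log2 scale (adjusted p = 0.0246), and XBP1 was called higher at 1.34 with an adjusted p of 0.0548. Among the 22 genes that were not tested, SPDEF, the regulator of goblet cell differentiation, was listed at 0 in all 3 resistant libraries and was at 1.15 and 0.392 FPKM in HCC827. BPIFA1, an airway surface protein, showed the same arrangement, with 0.652 and 0.894 FPKM in HCC827. FOXA2, AGR3, FCGBP, ZG16B, WFDC2, PIGR, LTF, ANO1 and SLC26A4 were also separate with HCC827/GR lower. Some of these gaps were slight. LTF reached 0.008767 FPKM in HCC827/GR, against a lowest parental value of 0.008781, and SLC26A4 was at most 0.0145 FPKM. FOXA3, CFTR and SLC26A9 were separate with HCC827/GR higher, with CFTR and SLC26A9 at most at 0.02014 and 0.02615 FPKM. Over all entries above 0 in any library, 18.7% were separate with HCC827/GR lower and 15.1% with it higher. Groups overlapped for ERN2, TFF2, CLCA2, CLCA4, BPIFB1, SCGB3A2, LYZ and BEST1.

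Partners of membrane mucins and the enzymes that can shed them gave 2 higher and 3 lower calls among 21 tested of 26 listed, where 6.94% of all entries had either call, with a median log2 fold change of 0.10. EGFR was at 7.82, 5.78 and 3.52 FPKM in HCC827/GR and at 70.8 and 56.4 FPKM in HCC827 (log2 fold change -3.31, adjusted p = 0.00926). ST14, the membrane protease matriptase, fell by 3.82 (adjusted p = 0.00234), and JUP, or gamma-catenin, which binds the MUC1 tail, fell by 1.84 (adjusted p = 0.0145). PDZK1, a scaffold of apical membranes, rose by 2.13 (adjusted p = 0.0151). SLC9A3R1, another such scaffold, whose entry joins 2 genes, was called higher at 1.07 with an adjusted p of 0.157.

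Several partners were not called. The sheddases ADAM10 and ADAM17 had log2 fold changes of 0.22 and 0.16, and beta-catenin (CTNNB1), another partner of the MUC1 tail, was at -0.03, all with overlapping groups. ERBB2, the partner of MUC4, had a log2 fold change of -0.21 (adjusted p = 0.423). MSLN, which binds MUC16, was not tested and was at 0.687, 0.389 and 0.456 FPKM in HCC827/GR and at 0.327 and 0.194 FPKM in HCC827.

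**Figure D4:**
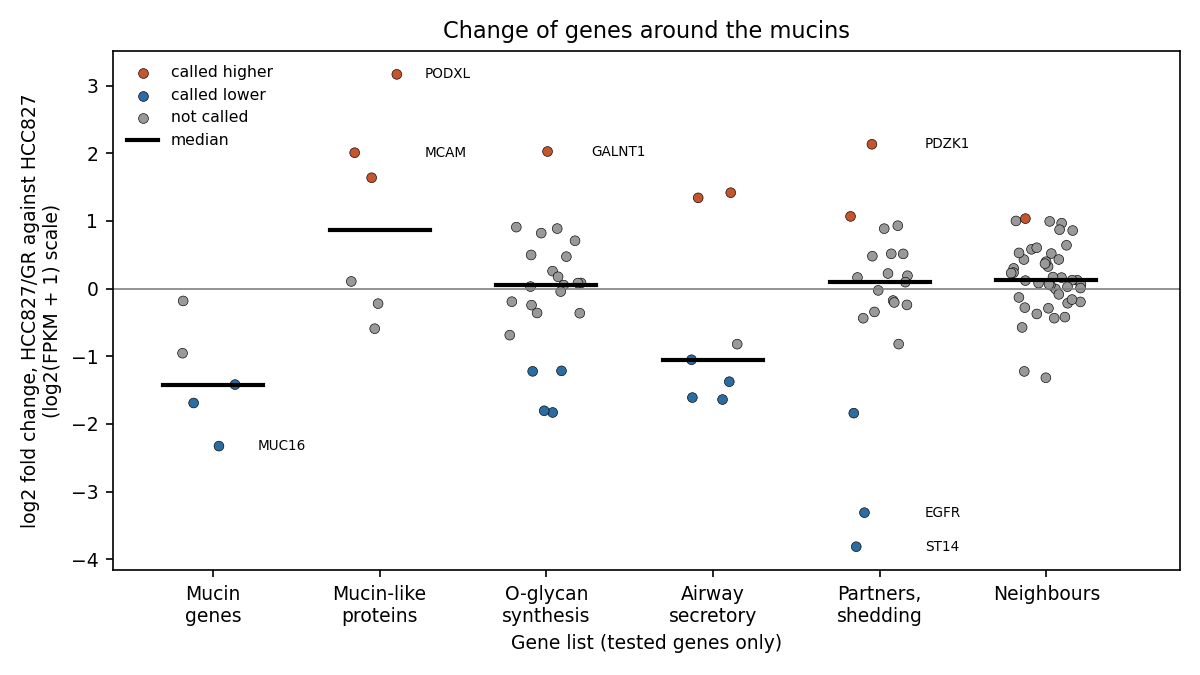
Log2 fold change (HCC827/GR against HCC827, log2(FPKM + 1) scale) of each tested gene in 6 lists, with 1 point per gene, orange for called higher, blue for called lower, grey for not called and a bar at the list's median. The medians run from -1.42 for the 5 mucin genes tested to 0.87 for the mucin-like proteins. Called genes beyond 2 on the log2 scale are named.

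Neighbours were listed for the loci of MUC1, MUC3A with MUC12, MUC4 with MUC20, and MUC5AC with MUC5B, and not for MUC13 or MUC16. Of 61 neighbours listed at 4 loci, 45 were tested, with a median log2 fold change of 0.12. Of these, 2 were called higher and 0 lower, or 4.44% in all, which is near the 6.94% of all entries. An adjusted p under 0.05 was found for 8, all higher in HCC827/GR, against 851 higher of all 16189 entries tested. ACHE, among these, passed the filter only through HCC827/GR. Fold changes were positive for 31 neighbours and negative for 14, against 8125 and 8064 of all entries tested. At 3q29, where MUC20 and MUC4 lie next to each other, none of 9 neighbours tested was called, with log2 fold changes of 0.12 for TNK2 and -0.57 for the transferrin receptor TFRC (adjusted p = 0.169). At 11p15, where MUC5AC and MUC5B are adjacent, AP2A2 on one side was at 0.30 (adjusted p = 0.210) and TOLLIP on the other at -0.38 (adjusted p = 0.598). Further along, the phosphatase gene DUSP8 rose by 1.03 (adjusted p = 0.0189), and 9 of the 11 neighbours tested there had positive values.

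At 7q22, MUC3A and MUC12 stayed below 0.28 FPKM in every library, and the nearest tested gene beyond them, TRIM56, had a log2 fold change of 0.16 (adjusted p = 0.411). On the other side, ACHE, the acetylcholinesterase gene, was at 0.99 (adjusted p = 0.0146), just short of the fold threshold. POP7 further out was at 36.9 FPKM in HCC827 replicate 3 and between 2.28 and 3.83 FPKM in the other libraries, and its log2 fold change of -1.32 (adjusted p = 0.485) was -3.08 without HCC827 replicate 2 and 0.45 without replicate 3. At 1q22 none of 10 neighbours tested was called, and THBS3, the first tested gene after MUC1, had a log2 fold change of 0.05 (adjusted p = 0.891). On the other side the nearest tested gene was DPM3, a subunit of dolichol-phosphate mannose synthase, at 9.06, 9.19 and 0.679 FPKM in HCC827/GR and 11.4 and 12.6 FPKM in HCC827. Its groups were separate and its log2 fold change of -1.22 was past that of MUC1, but with an SE of 0.89 it was not called (adjusted p = 0.442).

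**Figure D5:**
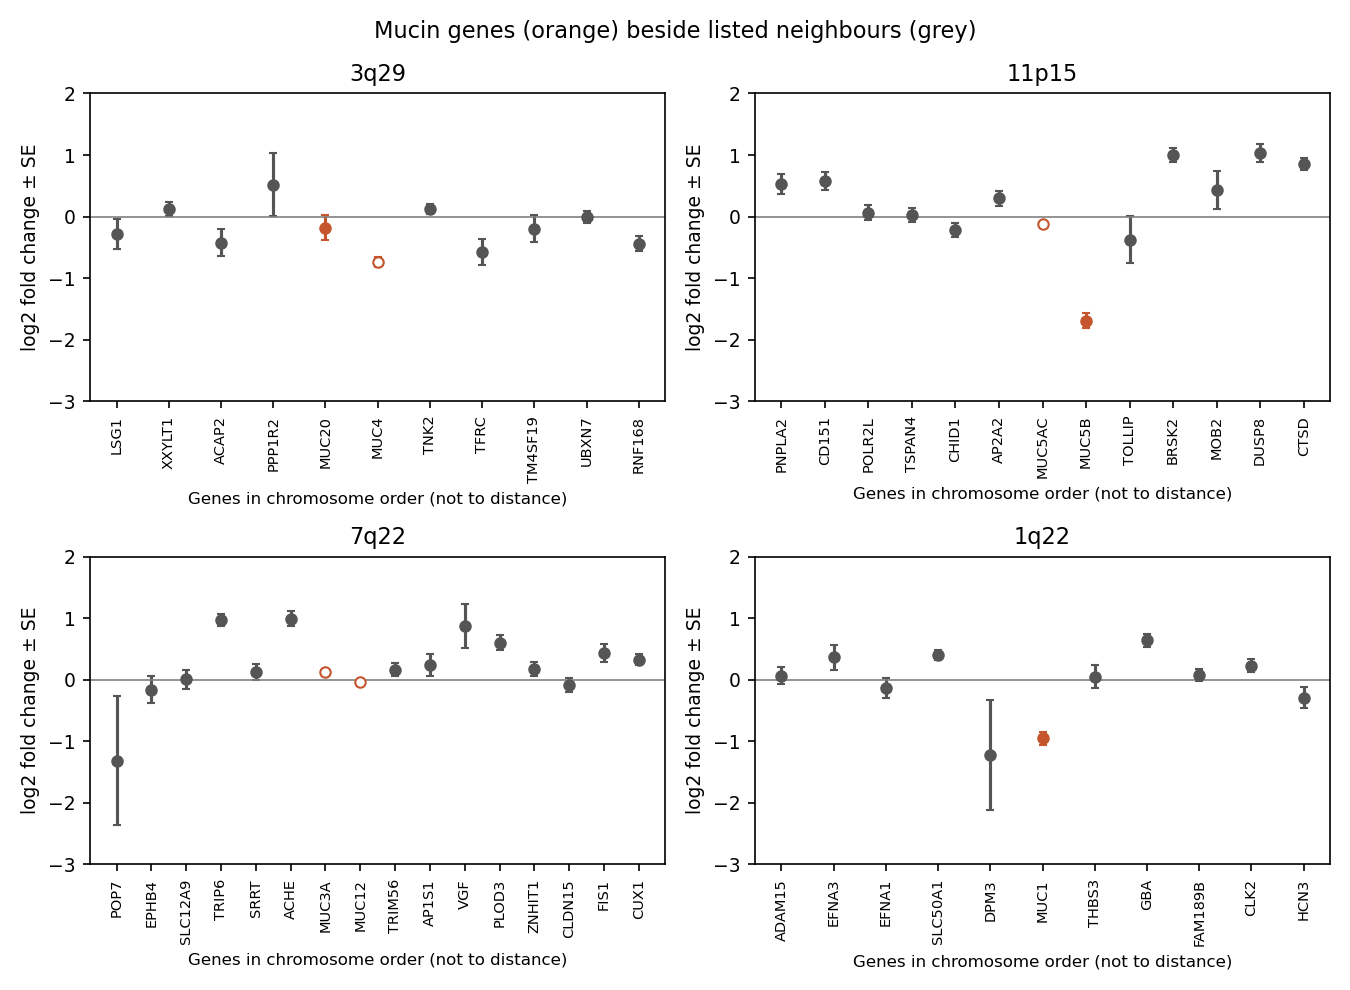
Log2 fold change with its SE for mucin genes (orange, open for the fit with no filter) and tested neighbours (grey) at 3q29, 11p15, 7q22 and 1q22, with genes in chromosome order and not spaced by distance. MUC5B at -1.69 and MUC1 at -0.95 are drawn beside their neighbours, of which DPM3 at -1.22 and POP7 at -1.32 have the widest SE.

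Markers of the lung adenocarcinoma epithelium were also lower in HCC827/GR. Of 8 such markers 6 were in the table. All 6 had separate groups with HCC827/GR lower, as had 18.7% of the 36011 entries above 0 in any library. Of the 6, 4 were called lower, as were 3.97% of all entries tested. They include EPCAM (log2 fold change -3.04, adjusted p = 0.00349) and the epithelial cadherin gene CDH1 (-1.93, adjusted p = 0.0125). Their summed level was between 443 and 573 FPKM in HCC827/GR and was 1068 and 1186 FPKM in HCC827, and none was listed at 0. In bulk RNA, fewer cells of a type and less RNA per cell cannot be told apart, and the part of this difference in the mucin levels was not tested.

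Of the markers of other cell types, only PECAM1 was called. The 6 fibroblast markers summed to between 0.792 and 1.17 FPKM in all 5 libraries, but that sum joins opposite differences. PDGFRB was higher in HCC827/GR, at 0.2784, 0.1845 and 0.1845 FPKM against 0.00777 and 0.0147 FPKM in HCC827. LUM was lower, at 0.0129, 0.0123 and 0.0255 FPKM against 0.0930 and 0.257 FPKM. COL3A1 was also separate and lower, the other fibroblast markers overlapped, and PDGFRB, LUM and COL3A1 were not tested. The immune markers summed to between 31.1 and 39.3 FPKM, nearly all of it CD68, with overlapping groups, and PTPRC, the pan-leukocyte marker, was at most 0.0228 FPKM. Of the 4 endothelial markers, PECAM1, through the highest of its 10 entries, was listed at 0 in HCC827/GR and was at 4.34 and 3.32 FPKM in HCC827 (log2 fold change -2.26, adjusted p = 0.00390), while VWF was at most 0.0268 FPKM in any library. That PECAM1 entry passed the filter through HCC827 alone. KDR was the other way round, at 0.0743, 0.0584 and 0.0830 FPKM in HCC827/GR and at 0 and 0.00672 FPKM in HCC827, and was not tested.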

How the data were processed

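The mucin genes and the other gene lists were chosen with earlier results of these data known. RNA of 3 HCC827/GR and 2 HCC827 samples was sequenced. The authors trimmed reads with Cutadapt, checked them with FastQC, mapped them with Bowtie2 and TopHat2 and assembled them with StringTie. They estimated levels with StringTie and Ballgown, naming StringTie for the FPKM, and deposited FPKM per entry. Versions are not given in the sources used here. The labels describe a small-RNA library and the study's methods an rRNA-depleted one. The submitters' processing notes name the build hg18, but 135164 of the 135299 Ensembl transcript identifiers in the table are in GENCODE release 29, so coordinates are those of that annotation on GRCh38. Those given with an entry are of the annotated gene of its symbol, and a joined entry can reach beyond them. The table also holds 1 FPKM column that matched no sample, which was not used.

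FPKM were compared on log2(FPKM + 1) by the moderated linear model of limma 3.58.1 (R 4.3.3, two-sided, variance trend allowed) over the 16189 entries that averaged 0.5 FPKM or more. Adjusted p are Benjamini-Hochberg values over all of them. FPKM carry no depth, so no counting interval was given, and a 0 is read as listed at 0. Totals of the FPKM column lay between 138854 and 167722. The genes named are all members, the called genes of each other list (at most 4 in each direction, by size), the neighbours of the mucin genes, and listed genes a count needed. C1GALT1, the partners not called and the other mucins and mucin-like proteins not called were named after their values were seen. So were the secretory genes that were not tested, PTPRC, DPM3, POP7, KDR, PDGFRB, LUM and COL3A1. Listed symbols with no entry under their name or transcripts were not analysed here, and 1 neighbour that is counted among the calls is not reported or drawn here.

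Alternatives were a pseudocount of 0.1, a filter at 1 FPKM or none, scaling by median ratios or quantiles, limma with no trend, the model of Ballgown, a replicate block, summing the entries of a symbol, folds from mean FPKM, and leaving out each library. The comparison was tested on simulated data first. Words, codons and motifs were counted with Python 3.11.15, numpy 2.4.6 and pandas 2.3.3, and plots were drawn with matplotlib 3.10.9.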

Additional observations from a re-analysis of the deposited data

How the results depend on the processing

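Of 129 recomputed counts over all entries and the gene lists, 116 stayed within 1.5 times of the reported count and 13 did not, and no called result turned its direction. MUC12, which was not tested, had a log2 fold change of -0.04 with no filter and 0.01 without HCC827 replicate 3, and 11 of the 45 neighbours changed sign with some library left out. The 480 entries called higher became 860 with a pseudocount of 0.1 and 919 with the ratio of mean FPKM, and the 643 called lower became 1024 and 1201, since a smaller pseudocount enlarges the fold change of low genes. MUC1 was then called lower as well. The 2 neighbours called became 4 with a pseudocount of 0.1, quantile normalization, the ratio of mean FPKM or the replicate block, and between 1 (without HCC827/GR replicate 2) and 6 (without HCC827 replicate 2) with a library left out. The 7 members whose groups did not overlap became 3 with a mean of at least 1 FPKM, because fewer genes were kept. MUC16, MUC5B and MUC13 were called lower by fold and p in every fit that tested them, but their adjusted p depended on the fit. Over all entries, 1775 had an adjusted p under 0.05, against 24 in Ballgown's model, 0 with the replicate block (3545 at an unadjusted p under 0.05) and between 489 and 962 with a library left out. MUC16, MUC13, MUC1 and MUC5B had adjusted p of 0.147, 0.183, 0.125 and 0.0670 in Ballgown's model. The replicate block uses replicates 2 and 3 of each group, which share only a number, and their deviations correlated at 0.0328 and 0.0147. Adjusted p with it were between 0.124 and 0.143 for these 4 genes. Depth is unknown, so values near 0, as for MUC5AC, MUC12 and MUC3A, have no counting error.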

Other observations

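Some genes that read or trim the sugar chains of mucins, and the MUC1 partner ICAM1, were also measured. LGALS9, a galectin whose entry joins 3 genes, was at 1.75, 1.43 and 1.35 FPKM in HCC827/GR and at 0.817 and 0.695 FPKM in HCC827. Its groups were apart, with a log2 fold change of 0.51 (limma adjusted p = 0.0724). The galectin LGALS1 was at 135.8, 93.3 and 106.5 FPKM in HCC827/GR and at 70.7 and 84.1 FPKM in HCC827. Its groups were also apart, with a log2 fold change of 0.51 (adjusted p = 0.180). LGALS3, the galectin that binds MUC1, overlapped between groups (-0.18, adjusted p = 0.566). The sialidase NEU1 was at 14.0, 19.1 and 13.3 FPKM in HCC827/GR and at 8.22 and 6.92 FPKM in HCC827, with a log2 fold change of 0.93 that was short of the fold threshold (adjusted p = 0.0463). ICAM1, a ligand of MUC1, stood at 0.89 (adjusted p = 0.0341), and every resistant library was above both parental ones. These genes were named after their values were seen.

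Within the GALNT family, GALNT2 was higher in HCC827/GR in every library without reaching the fold threshold (log2 fold change 0.82, adjusted p = 0.0292), and GALNT12 was lower (-0.69, adjusted p = 0.0265). GALNT8 and GALNT10 differed by 0.03 and -0.04, with overlapping groups, but their entries join 5 and 2 genes.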
